A study of Rattus norvegicus with 2 samples.

Results

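The genes described here encode 10 matricellular and closely related matrix proteins of vessel repair: periostin (Postn), the thrombospondins (Thbs1 and Thbs2), osteopontin (Spp1), tenascin C (Tnc), the CCN proteins (Ccn1 and Ccn2), SPARC (Sparc), cartilage intermediate layer protein (Cilp) and fibronectin (Fn1). They are 10 of the 32623 genes in the deposited table and were read by symbol, each from 1 row, in every class of cells and in both libraries. They were chosen by name with their measured UMI counts in these cells and libraries known from earlier analyses of the same data, so their differences between the groups are descriptions that support nothing. The study mapped the cells of rat carotid arteries after balloon injury, which imitates angioplasty. The case group was the right carotid artery after 5 passages of an inflated balloon, and the control group was the untreated left carotid artery of the same 2 male SD (Sprague-Dawley) rats, 12 weeks old per the labels. Arteries of the 2 rats were pooled into 1 library per group 28 days after injury, and RNA of single cells was counted with the 10x Genomics platform. With 1 library per group no test was possible, and injury and library cannot be told apart.

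Matricellular proteins are secreted into the matrix but bear little mechanical load. They bind integrins, CD44, syndecans, growth factors and collagen, and so change adhesion, migration and collagen assembly; most are scarce in resting adult tissue and are made again during wound repair. In arteries, osteopontin and tenascin C are well known products of smooth muscle that has left its contractile state, periostin is a product of activated fibroblasts, and the CCN genes are classical targets of YAP and TEAD signalling.

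A unique molecular identifier (UMI) stands for 1 captured RNA molecule. After filtering, the control library held 2742 cells with 23974210 UMIs (median 8880 per cell) and the case library 4930 cells with 27054902 UMIs (median 5156). Cells were placed in a class by the share of their UMIs in fixed marker genes, and none of the 10 genes was a marker. The smooth muscle gate took 1584 control and 2677 case cells, the fibroblast gate 728 and 1463, the endothelial gate 56 and 252, the macrophage gate 45 and 115, and the Schwann gate 19 and 54. Smooth muscle markers summed to 25578 and 20531 UMIs per 1000000 (CPM) in smooth muscle-gated cells and to 1470 CPM or less in the 4 other gates, while fibroblast markers summed to 25186 and 20523 CPM in fibroblast-gated cells and to 658 CPM or less elsewhere. Endothelial markers summed to 3030 and 3306 CPM in their own gate and to 49.0 CPM or less in the 4 others, macrophage markers to 11820 and 13754 against 21.1 CPM or less, and Schwann markers to 5550 and 6170 against 78.6 CPM or less. Macrophage-gated cells held Tagln, a smooth muscle gene, at 3.28% (control) and 2.39% (case) of its level in smooth muscle-gated cells, and this class serves below as the background from free RNA. Levels are UMIs summed over the cells of a gate as CPM. Intervals are 95% and cover counting error only, not the spread between cells or animals. A difference of 1.5-fold or more in a gene with a mean of at least 50 CPM over both libraries is counted as higher or lower.

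**Figure D1:**
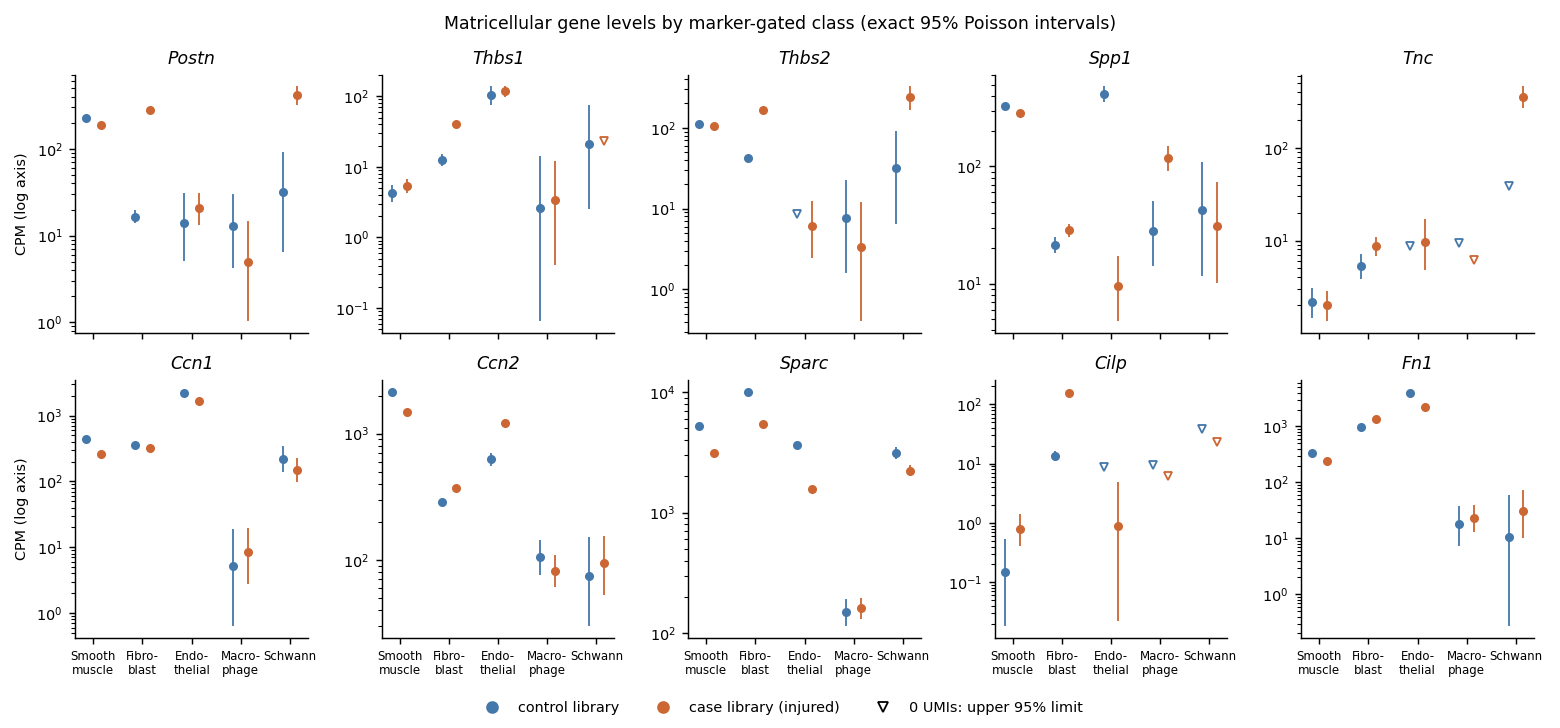
Level of each gene (CPM, log axis) in 5 marker-gated classes of the control (blue) and case (orange) library, with exact 95% Poisson intervals; an open triangle marks the upper limit where no UMI was found. Postn, Cilp and Thbs2 stand higher in the case library in the fibroblast gate, and Sparc stands lower in the smooth muscle, fibroblast and endothelial gates.

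Of the 10 genes, 7 reached the minimum in fibroblast-gated cells, 7 in smooth muscle-gated cells, 6 in endothelial-gated cells and 3 in macrophage-gated cells. In fibroblast-gated cells 3 of 7 were higher in the case library (Postn, Cilp and Thbs2), where 6.90% of the 2377 genes counted were higher, and 1 of 7 was lower (Sparc), where 14.1% of all genes were lower (21.0% in either direction). In smooth muscle-gated cells 0 of 7 were higher (7.70% of 2519 genes were) and 2 of 7 were lower, Ccn1 and Sparc (15.4% were, 23.1% in either direction). In endothelial-gated cells 1 of 6 was higher, Ccn2 (17.3% of 2673 genes were), and 3 of 6 were lower, Spp1, Sparc and Fn1 (26.0% were, 43.2% in either direction). In macrophage-gated cells 1 of 3 was higher, Spp1 (15.3% of 2473 genes were), and 0 of 3 were lower (13.7% were, 29.0% in either direction). The median log2 ratio of the counted members was 0.49 in the fibroblast, -0.48 in the smooth muscle, -0.61 in the endothelial and 0.11 in the macrophage gate, beside -0.07, -0.12, -0.11 and 0.01 over all genes counted. The counts are small, and the members were chosen with such differences in view. Postn, Cilp and Thbs2 lay under 50 CPM in control fibroblast-gated cells (16.5, 13.5 and 41.9 CPM), so they passed the minimum only through the case library. Spp1 did so too in macrophage-gated cells (28.4 CPM in the control). In endothelial-gated cells Spp1 passed only through the control library (9.59 CPM in the case library).

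**Figure D2:**
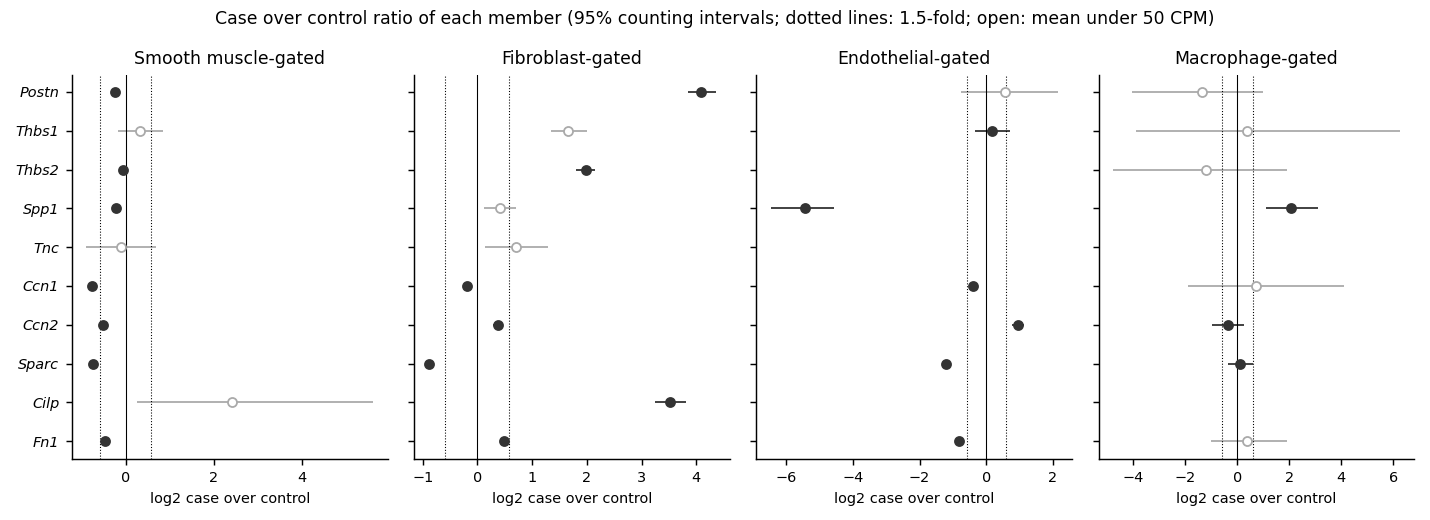
Log2 ratio of case over control for each gene in 4 gates, with 95% counting intervals; dotted lines mark 1.5-fold, open points are genes with a mean under 50 CPM, and genes with no UMI in a library are not drawn. Postn (4.09) and Cilp (3.52) lie farthest to the right in the fibroblast gate, and Spp1 lies at -5.44 in the endothelial gate.

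Postn and Cilp had the highest ratios of case over control among the members counted in the smooth muscle, fibroblast, endothelial and macrophage gates, both in fibroblast-gated cells. Postn encodes a fasciclin-domain protein that binds integrins and aids collagen cross-linking, and Cilp encodes a matrix glycoprotein known to restrain TGF-beta signalling. Their promoters are shown because both genes were higher in the case library in this class. Few cells were high for both, at a share close to that of either set among all cells of the gate (below). The windows are the 250 bases before the RefSeq start (build GRCr8, + strand for both), chr2:140677811-140678060 for Postn and chr8:74672198-74672447 for Cilp, written 5′ to 3′, with capitals on matches to the motifs described below.
Postn: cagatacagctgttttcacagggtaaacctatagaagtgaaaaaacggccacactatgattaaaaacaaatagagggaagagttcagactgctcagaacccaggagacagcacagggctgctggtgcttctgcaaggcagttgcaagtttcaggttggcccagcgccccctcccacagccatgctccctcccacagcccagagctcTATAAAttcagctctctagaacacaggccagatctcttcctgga
Cilp: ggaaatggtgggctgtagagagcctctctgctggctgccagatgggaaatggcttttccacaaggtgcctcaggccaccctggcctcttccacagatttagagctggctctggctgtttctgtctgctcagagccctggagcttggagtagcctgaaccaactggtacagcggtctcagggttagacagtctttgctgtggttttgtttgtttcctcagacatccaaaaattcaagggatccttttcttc
The motifs searched on both strands were TATAAA of the basal promoter, the core GGAATG bound by TEAD factors, TGANTCA of AP-1 and the CArG box of serum response factor. Among the 33469 RefSeq promoters cut to the same window, 12.9% held TATAAA, 12.1% GGAATG, 6.34% TGANTCA and 501 windows held a CArG box. Postn held 1 TATAAA, whose last base lies 39 bases before the start, and the Cilp window held none of these motifs. RefSeq windows were matched for 8 of the 10 genes, without Thbs2 and Fn1, and a match is a description of the letters only.

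In fibroblast-gated cells Postn measured 16.5 CPM (interval 13.9 to 19.5) in the control and 281 CPM (270 to 293) in the case library, a log2 ratio of 4.09 (3.84 to 4.35). The 2 intervals were far apart. Cells with at least 1 Postn UMI made up 7.97% of control and 19.3% of case fibroblast-gated cells. After thinning each cell to 2000 UMIs the shares were 2.72% (19 of 698 cells) and 13.8% (192 of 1392), beside 1 of 45 and 0 of 109 macrophage-gated cells (median depth 8768 and 4835 UMIs per cell, against 11203 and 5119 in the fibroblast gate). The case share was thus above the background. The control share lay within the interval of its background (0.06 to 11.8%), which rests on 1 cell and is too wide to place it. Of the control Postn UMIs of the fibroblast gate, 41.6% were in 5 cells. Cilp measured 13.5 CPM (11.1 to 16.2) and 155 CPM (147 to 164), a log2 ratio of 3.52 (3.24 to 3.82). In the control 63.4% of the Cilp UMIs were in 5 cells, and without the 5 cells with the most UMIs in each library the levels were 4.97 and 139 CPM (log2 ratio 4.80). For Postn they were then 9.69 and 239 CPM (4.62). Leaving out 5 cells takes a larger share of the 728 control than of the 1463 case cells, which tends to raise such ratios in this gate. Cilp was low in the 4 other gates, with 0.15 and 0.80 CPM in smooth muscle-gated cells, 1 UMI in endothelial-gated cells and 0 in macrophage-gated and Schwann-gated cells.

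Thrombospondins bind CD36, CD47 and latent TGF-beta. Thbs2 measured 41.9 CPM (37.6 to 46.5) in control and 165 CPM (157 to 174) in case fibroblast-gated cells, a log2 ratio of 1.98 (1.81 to 2.15). Thbs1 measured 12.6 CPM (10.3 to 15.3) and 40.0 CPM (35.7 to 44.6), a log2 ratio of 1.66 (1.34 to 1.99; 2.32 without the 5 cells with the most UMIs in each library), but its mean lay under the minimum. Both paralogs thus had higher values in the case library, with intervals that did not overlap. Fn1, the cell-binding fibronectin, measured 976 CPM (955 to 997) and 1371 CPM (1345 to 1397), a log2 ratio of 0.49 (0.45 to 0.53), which did not reach 1.5-fold over the whole gate. Tnc and Spp1 were low in this gate, with 5.30 and 8.65 CPM for Tnc and 21.4 and 28.4 CPM for Spp1.

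Sparc went the other way. It encodes a collagen-binding chaperone-like glycoprotein that aids collagen deposition. In fibroblast-gated cells it measured 10015 CPM (9947 to 10083) in the control and 5453 CPM (5401 to 5504) in the case library, a log2 ratio of -0.88 (-0.89 to -0.86). In smooth muscle-gated cells it measured 5195 and 3127 CPM (log2 ratio -0.73, -0.75 to -0.72), in endothelial-gated cells 3654 and 1580 CPM (log2 ratio -1.21, -1.31 to -1.11) and in the few Schwann-gated cells 3134 and 2224 CPM (log2 ratio -0.50, -0.72 to -0.27). The case value was the lower in each of these 4 gates, and the Schwann value did not reach 1.5-fold. Macrophage-gated cells held 150 and 161 CPM of Sparc, with overlapping intervals.

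Fibroblast-gated cells were split by Postn and by Cilp. The limits of these splits were set after the distributions had been seen: a cell was called high with at least 4 UMIs of the gene per 10000 and at least 2 in all. In the case library 150 fibroblast-gated cells (10.3%) were Postn-high and held 92.1% of the Postn UMIs of the gate, and 172 (11.8%) were Cilp-high and held 88.0% of the Cilp UMIs. The cells in both sets numbered 17, which is 11.3% of the Postn-high and 9.88% of the Cilp-high cells, close to the share that either set had of all fibroblast-gated cells. The control library held 10 Postn-high and 7 Cilp-high cells, with 0 in both. Between 1.5-fold under and 1.5-fold over the limit lay 48 case cells for Postn and 49 for Cilp.

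The other members differed between these sets. Postn-high case cells had 2875 CPM of Fn1 against 1158 in Postn-low cells (log2 ratio 1.31, 1.25 to 1.37), 268 against 151 CPM of Thbs2 (0.83, 0.63 to 1.02), 55.7 against 24.6 CPM of Spp1 (1.18, 0.72 to 1.63) and 21.3 against 6.86 CPM of Tnc (1.63, 0.82 to 2.40). Cilp did not differ beyond counting error, 148 and 156 CPM (log2 ratio -0.08, -0.34 to 0.17). Cilp-high case cells, a split added after the data had been seen, had 133 against 28.4 CPM of Thbs1 (log2 ratio 2.23, 1.89 to 2.56), 489 against 125 CPM of Thbs2 (1.97, 1.80 to 2.14) and 589 against 341 CPM of Ccn2 (0.79, 0.65 to 0.93). Fn1 was lower in them, 896 against 1429 CPM (log2 ratio -0.67, -0.78 to -0.57), and so was Postn, 199 against 292 CPM (-0.55, -0.78 to -0.33). Thbs2 was thus higher in both sets, Fn1 stood on opposite sides, and Thbs1 was higher in the Cilp-high set, with no difference beyond counting error in the Postn-high set (42.6 and 39.6 CPM). The median depth was 5940 UMIs in Postn-high and 4999 in Postn-low cells, and 4596 in Cilp-high and 5155 in Cilp-low cells; its part in these differences was not tested.

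**Figure D3:**
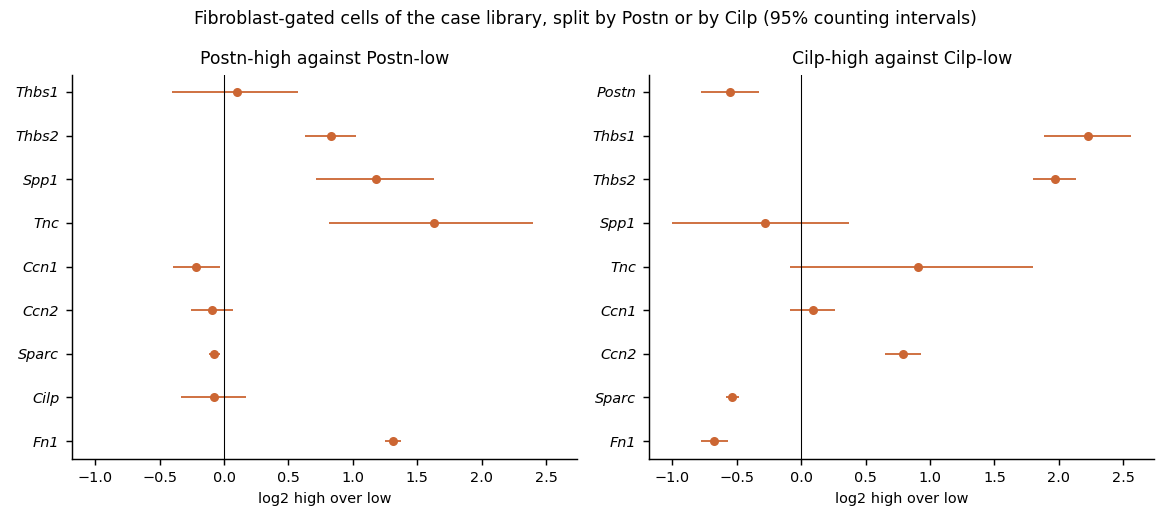
Log2 ratio of each other gene between Postn-high and Postn-low cells (left) and between Cilp-high and Cilp-low cells (right) among fibroblast-gated cells of the case library, with 95% counting intervals. Fn1 lies to the right at 1.31 in the Postn split and to the left at -0.67 in the Cilp split, and Thbs2 lies to the right in both.

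Fibroblast-gated cells were also split by Pi16, a marker of adventitial fibroblasts that was 1 of the 9 gate markers (limit 8 UMIs per 10000), and by Gfpt2, an enzyme of hexosamine synthesis (limit 16). Pi16-high cells made up 59.3% of control and 29.3% of case fibroblast-gated cells, so the makeup of the gate by this limit differed between the libraries. Near the Pi16 limit lay 119 control and 206 case cells, and near the Gfpt2 limit 99 and 188. Case cells of the gate were also less deep (median 5119 against 11203 UMIs). The part of depth and of cells near the limit in these shares was not tested. Within Pi16-low cells Postn measured 21.3 and 376 CPM (log2 ratio 4.14, 3.80 to 4.50), and within Pi16-high cells 13.3 and 67.6 CPM (2.34, 1.92 to 2.77). The case value of Postn was thus higher within each subset, and the ratio in Pi16-low cells was the larger, with intervals that did not overlap. Cilp measured 18.9 and 217 CPM in Pi16-low cells (log2 ratio 3.52, 3.15 to 3.91) but 9.95 and 15.2 CPM in Pi16-high cells (0.61, -0.05 to 1.25), where the difference was within counting error. The Pi16-high cells held only 50 control and 37 case UMIs of Cilp and lay under the minimum of 50 CPM in both libraries. Divided further, these few UMIs gave unlike ratios. The log2 ratio of Cilp was 4.27 in Pi16-high cells that were also Gfpt2-high, with a wide interval (1.46 to 9.71). In those that were Gfpt2-low it was 0.26 (-0.47 to 0.97). Thbs2 measured 45.4 and 210 CPM in Pi16-low cells (log2 ratio 2.21, 1.96 to 2.47), against 39.6 and 63.9 CPM in Pi16-high cells (0.69, 0.38 to 1.00). Fn1 was higher in the case library in both subsets. Its log2 ratio passed 1.5-fold in Pi16-low cells (0.63, 0.56 to 0.69) but not in Pi16-high cells (0.50, 0.44 to 0.56).

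Sparc was lower in the case library in all 4 combinations of Pi16 and Gfpt2. The log2 ratio was -1.44 (-1.48 to -1.39) in Gfpt2-high and Pi16-low cells, -1.15 (-1.20 to -1.11) in cells high for both, -0.61 (-0.63 to -0.58) in cells low for both and -0.43 (-0.46 to -0.39) in Pi16-high and Gfpt2-low cells. The last of these did not reach 1.5-fold. In the Postn split Sparc was lower in Postn-low cells (log2 ratio -0.88, -0.90 to -0.86). It was higher in Postn-high cells, with 1974 CPM in the control and 5207 CPM in the case library (1.40, 1.19 to 1.62), but on only 10 control cells. Gfpt2-high cells had less Ccn1 and Ccn2 than Gfpt2-low cells in both libraries. Ccn1 measured 161 against 505 CPM in the control (log2 ratio -1.65, -1.79 to -1.52) and 129 against 457 CPM in the case library (-1.82, -1.98 to -1.67), and Ccn2 measured 127 against 398 CPM (log2 ratio -1.65) and 151 against 528 CPM (-1.81). The Gfpt2 split thus divided both CCN genes in the same direction in both libraries. Gfpt2-high cells were deeper, with a median of 14857 against 9462 UMIs in the control and 6284 against 4521 in the case library, and the part of depth was not tested.

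**Figure D4:**
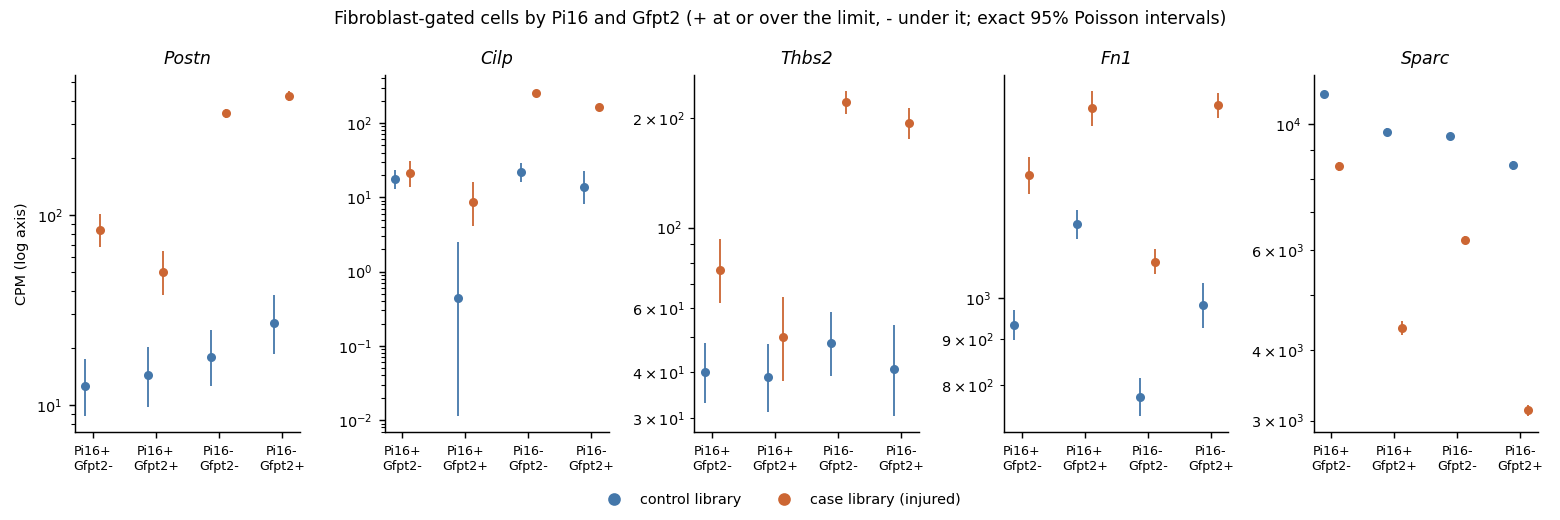
Level (CPM, log axis) of 5 genes in fibroblast-gated cells by Pi16 and Gfpt2, for the control (blue) and case (orange) library, with exact 95% Poisson intervals. Postn is higher in the case library in all 4 subsets, and Sparc is lower in all 4. Thbs2 is far higher in the Pi16-low subsets. Cilp is far higher in these subsets and in cells high for Pi16 and Gfpt2, where its ratio has a wide interval.

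Ccn1 and Ccn2 encode secreted proteins that bind integrins and heparan sulphate and are early-response genes of stretched or spread cells. Their promoters are shown because the genes share these regulators but differed in the classes where they were high. The windows are again the 250 bases before the RefSeq start on build GRCr8, both on the - strand, chr2:237225690-237225939 for Ccn1 and chr1:22624615-22624864 for Ccn2; capitals mark TATAAA and GGAATG, which reads CATTCC where it lies on the other strand.
Ccn1: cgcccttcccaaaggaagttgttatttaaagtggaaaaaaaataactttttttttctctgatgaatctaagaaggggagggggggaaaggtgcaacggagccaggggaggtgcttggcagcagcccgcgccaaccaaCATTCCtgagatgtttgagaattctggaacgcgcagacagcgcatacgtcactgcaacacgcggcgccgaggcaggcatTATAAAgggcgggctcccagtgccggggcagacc
Ccn2: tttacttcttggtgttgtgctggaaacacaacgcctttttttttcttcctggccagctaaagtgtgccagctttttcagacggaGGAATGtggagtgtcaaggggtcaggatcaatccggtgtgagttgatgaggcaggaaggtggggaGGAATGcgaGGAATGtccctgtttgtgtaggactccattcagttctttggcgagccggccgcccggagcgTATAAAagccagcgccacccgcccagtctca
Ccn2 held 3 GGAATG, with last bases 161, 96 and 87 bases before the start, and Ccn1 held 1, at 108 bases. Both held 1 TATAAA, at 26 bases in Ccn2 and 29 in Ccn1. No TGANTCA and no CArG box was in either window.

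In smooth muscle-gated cells Ccn1 measured 443 CPM (432 to 454) in the control and 262 CPM (254 to 271) in the case library, a log2 ratio of -0.76 (-0.81 to -0.70). Ccn2 measured 2130 CPM (2105 to 2154) and 1482 CPM (1462 to 1501), a log2 ratio of -0.52 (-0.55 to -0.50), which did not reach 1.5-fold. Both were thus lower in the case library in this gate. In endothelial-gated cells they parted. Ccn1 measured 2167 CPM (2029 to 2311) and 1637 CPM (1563 to 1712), a log2 ratio of -0.40 (-0.52 to -0.29), and Ccn2 measured 626 CPM (553 to 706) and 1214 CPM (1151 to 1279), a log2 ratio of 0.95 (0.77 to 1.15). In fibroblast-gated cells Ccn1 was at 361 and 318 CPM (log2 ratio -0.19, -0.26 to -0.11) and Ccn2 at 285 and 368 CPM (0.37, 0.29 to 0.45), both under 1.5-fold. With each cell thinned to 2000 UMIs, Ccn2 passed 1.5-fold in fibroblast-gated (log2 ratio 0.61) and smooth muscle-gated cells (-0.62), as Ccn1 did in endothelial-gated cells (-0.59). The order of the 5 gates also differed: Ccn1 was highest in endothelial-gated cells in both libraries, and Ccn2 in smooth muscle-gated cells in both. Macrophage-gated cells had 5.16 and 8.39 CPM of Ccn1 but 106 and 82.2 CPM of Ccn2, which is 4.97% and 5.55% of the smooth muscle level. Enzymatic digestion can itself induce early-response genes. Of 18 immediate early and dissociation genes counted in smooth muscle-gated cells 0 were higher and 3 lower in the case library (Jund 408 and 240 CPM, Klf6 243 and 146 CPM, Ier3 721 and 466 CPM), near the 15.4% of all genes that were lower there, and their part in the CCN values was not tested.

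The other members differed little in smooth muscle-gated cells. Postn measured 224 and 189 CPM (log2 ratio -0.25, -0.32 to -0.18), Spp1 331 and 285 CPM (-0.21, -0.27 to -0.15), Thbs2 111 and 107 CPM (-0.06, -0.16 to 0.04) and Fn1 329 and 237 CPM (-0.48, -0.54 to -0.41). None of these reached 1.5-fold, although Fn1 did with each cell thinned to 2000 UMIs (-0.60). Thbs1 (4.24 and 5.34 CPM) and Tnc (2.16 and 2.00 CPM) were close to 0 in both libraries, so Tnc was not raised in smooth muscle-gated cells at day 28 beyond counting error (log2 ratio -0.11, -0.89 to 0.68). The gate required contractile marker genes, so smooth muscle that had lost them would lie outside it. In the control library Postn was thus higher in smooth muscle-gated than in fibroblast-gated cells (224 against 16.5 CPM), and in the case library the order was reversed (189 against 281 CPM). Cells past both the smooth muscle and the fibroblast limit were kept apart. Among them Postn (129 and 249 CPM), Fn1 (550 and 903 CPM) and Thbs2 (82.3 and 125 CPM) were higher in the case library. Sparc was lower (9439 and 4504 CPM). Their median depth was 1186 UMIs in the control and 8736 in the case library, and its part was not tested.

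Smooth muscle-gated cells were split by Spp1 (at least 8 UMIs per 10000) and by Notch1 (at least 1), each with at least 2 UMIs. Spp1-high cells made up 7.07% of the control and 9.26% of the case cells of the gate. At least 2000 UMIs were held by 1055 of the 1584 control and 2544 of the 2677 case cells. A shallow cell is less likely to hold 2 UMIs, so the shares of both splits can depend on depth, which was not tested. Spp1-high cells had more Postn in both libraries, 519 against 196 CPM in the control (log2 ratio 1.40, 1.27 to 1.53) and 379 against 170 CPM in the case library (1.15, 1.01 to 1.29). Fn1 (log2 ratio 0.77, 0.64 to 0.89, and 0.72, 0.58 to 0.86), Sparc (0.64, 0.61 to 0.67, and 0.40, 0.36 to 0.44) and Ccn2 (0.48, 0.43 to 0.53, and 0.59, 0.53 to 0.65) were higher in them too. Thbs2 was not, with 102 against 112 CPM in the control and 101 against 107 CPM in the case library. Postn, Fn1, Sparc and Ccn2 were thus higher in the Spp1-high cells of both libraries. Near the Spp1 limit lay 150 control and 347 case cells, more than were called high, so many cells could change sides with a small shift of the limit. Whether the split divides a range or separate types was not tested. The median depth was 11105 UMIs in Spp1-high and 8910 in Spp1-low cells of the control, and 4910 and 5390 in the case library.

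Notch1-high cells, 12.1% of control and 9.34% of case smooth muscle-gated cells, had less Ccn1. The values were 237 against 500 CPM in the control (log2 ratio -1.08, -1.20 to -0.97) and 141 against 279 CPM in the case library (-0.98, -1.17 to -0.80). Ccn2 differed by -0.33 (-0.38 to -0.29) in the control and by -0.06 (-0.12 to 0.00) in the case library on the log2 scale, and Postn and Fn1 by no more than counting error. Sparc was slightly lower in both libraries (-0.26, -0.28 to -0.23, and -0.20, -0.24 to -0.16). Thbs1, at low levels, was lower in the control (-1.88, -3.81 to -0.44) and higher in the case library (1.91, 1.19 to 2.61). These Thbs1 values rest on 4 control and 27 case UMIs in Notch1-high cells. Notch1-high cells were deeper, with a median of 15572 against 7064 UMIs in the control and 6390 against 5262 in the case library, and the part of depth was not tested.

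**Figure D5:**
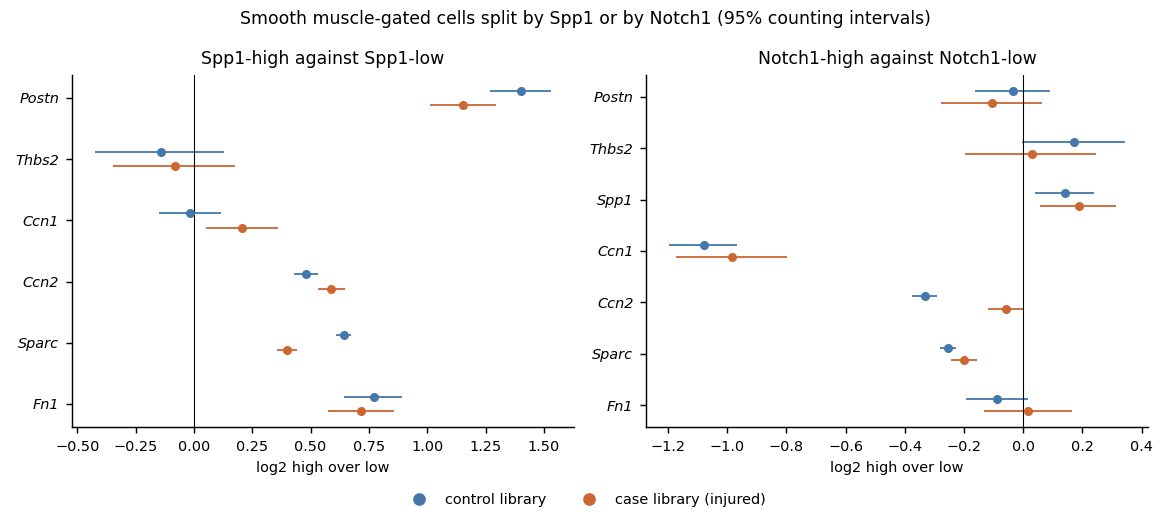
Log2 ratio between Spp1-high and Spp1-low cells (left) and between Notch1-high and Notch1-low cells (right) among smooth muscle-gated cells of the control (blue) and case (orange) library, with 95% counting intervals. Postn, Fn1, Sparc and Ccn2 lie to the right of 0 in the Spp1 split in both libraries, and Ccn1 lies near -1 in the Notch1 split. Thbs1, Tnc and Cilp, whose levels in the whole gate were close to 0 CPM, are not drawn.

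Of the 5 gates Fn1 was highest in endothelial-gated cells, at 3998 CPM (3811 to 4193) in the control and 2271 CPM (2185 to 2360) in the case library, a log2 ratio of -0.82 (-0.90 to -0.73). These values rest on 56 control cells, and with TMM scaling (edgeR) the log2 ratio was -0.50, under 1.5-fold. The endothelial gate was divided by Plvap and Emcn, genes of fenestrated, capillary and venous endothelium and 2 of the 10 gate markers. A UMI of either was found in 12 control cells (21.4%) and 111 case cells (44.1%). Because any UMI was enough, this split can depend on depth, and the rest can hold cells whose UMIs were missed. The median depth of the gate was 6982 UMIs in the control and 3978 in the case library, and the part of depth was not tested. In the case library cells with Plvap or Emcn had 370 CPM of Fn1 against 3580 in the rest (log2 ratio -3.28, -3.51 to -3.05), 712 against 2177 CPM of Sparc (-1.61, -1.79 to -1.44) and 1814 against 801 CPM of Ccn2 (1.18, 1.02 to 1.34). Cells with these genes were thus low in Fn1 and high in Ccn2 in the case library. In the control they were low in Fn1 too (log2 ratio -1.75, -2.031 to -1.485). The control difference of Ccn2 was within counting error (0.35, -0.07 to 0.76). Between the libraries, cells with Plvap or Emcn had 1386 and 370 CPM of Fn1 (log2 ratio of case over control -1.91, -2.25 to -1.56), 756 and 1814 CPM of Ccn2 (1.26, 0.90 to 1.65), 1249 and 712 CPM of Sparc (-0.81, -1.13 to -0.48) and 2120 and 1262 CPM of Ccn1 (-0.75, -0.99 to -0.50), all past 1.5-fold but resting on 12 control cells. Cells without either gene had 4671 and 3580 CPM of Fn1 (-0.38, -0.48 to -0.29) and 593 and 801 CPM of Ccn2 (0.43, 0.20 to 0.68), both under 1.5-fold, and 4273 and 2177 CPM of Sparc (-0.97, -1.08 to -0.87), which passed it. The ratios of Fn1 and Ccn2 thus had the same direction in both subsets and were larger in the cells with Plvap or Emcn. Thbs1 was highest in endothelial-gated cells too, with 103 CPM (75.0 to 139) and 117 CPM (97.9 to 138), a log2 ratio of 0.18 (-0.32 to 0.71). Of the 44 control UMIs 29 were in 5 cells, and without the 5 cells with the most in each library 38.1 and 86.1 CPM remained (log2 ratio 1.18), past 1.5-fold. Leaving out 5 cells takes a larger share of the 56 control than of the 252 case cells. This tends to raise the ratio, so 1.18 is no better estimate than 0.18.

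Spp1 in endothelial-gated cells was decided by few cells. It measured 417 CPM (358 to 484) in the control and 9.59 CPM (4.79 to 17.2) in the case library, a log2 ratio of -5.44 (-6.47 to -4.57). Of the 178 control UMIs, 173 were in 5 of the 56 cells, none of which had Plvap or Emcn. Smooth muscle markers in these 5 cells had a median of 14.4 UMIs per 10000, against 15.8 in the other control endothelial-gated cells. Without the 5 cells with the most Spp1 UMIs in each library, 13.4 and 2.66 CPM remained. In macrophage-gated cells, where Spp1 is a known product of tissue macrophages, it measured 28.4 CPM (14.2 to 50.8) and 117 CPM (91.6 to 148), a log2 ratio of 2.05 (1.12 to 3.12). Here 57 of the 70 case UMIs were in 3 of 115 cells, with a median of 8.98 smooth muscle marker UMIs per 10000 against 4.95 in the other case cells, and 5.71 and 10.7 CPM remained without the 5 cells with the most.

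The highest level of Tnc was in Schwann-gated cells of the case library. It had 57 UMIs there (357 CPM, 270 to 463), in 25.9% of the 54 cells, and 0 UMIs in the 19 control cells, so that with a floor of 3 UMIs for the control it was at least 11.3-fold higher. The background class, macrophage-gated cells, held 0 Tnc UMIs in both libraries. Tnc was not confined to the Schwann gate. Case cells that passed no marker limit held 33 Tnc UMIs (71.7 CPM, 49.3 to 101), 66.7% of them in 5 cells, and such control cells held 0. The mean over both libraries there, 35.8 CPM, lay under the minimum. Postn measured 31.7 CPM (6.53 to 92.5) and 413 CPM (320 to 526) in this gate, and Thbs2 31.7 CPM (6.53 to 92.5) and 238 CPM (168 to 327). For Postn 74.2% and for Thbs2 81.6% of the case UMIs were in 5 cells, against 56.1% for Tnc. The control values rest on 3 UMIs each.

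Receptors and relatives were taken from fixed lists, also chosen with earlier results known. Of 11 receptor genes counted in smooth muscle-gated cells 2 were higher and 0 lower, where 7.70% and 15.4% of all genes were: Cd44, a receptor of osteopontin and hyaluronan, at 58.6 and 138 CPM, and Itga5, the alpha chain of the fibronectin receptor, at 47.2 and 85.3 CPM. In fibroblast-gated cells 1 of 8 was higher, again Cd44, at 282 and 655 CPM, and 0 were lower, where 6.90% and 14.1% of all genes were. Cd44 thus had a log2 ratio of 1.24 (1.12 to 1.36) and 1.21 (1.14 to 1.29) in these gates. Of the matricellular relatives 0 of 7 were higher and 1 was lower in smooth muscle-gated cells, Ccn3 (7377 and 4150 CPM). In fibroblast-gated cells 4 of 15 were higher, Smoc2 (120 and 233 CPM), Aspn (176 and 324 CPM), Thbs3 (43.6 and 68.9 CPM) and Sparcl1 (1082 and 1639 CPM), and 2 were lower, Ccn5 (199 and 97.2 CPM) and Fbln5 (258 and 169 CPM); Sparcl1 and Fbln5 were named after their values had been seen. Over all genes 6.90% were higher and 14.1% lower in this gate, and the share of relatives that were lower was close to that. Itga5 and Thbs3 lay under 50 CPM in the control and passed the minimum only through the case library. Of the regulators and genes of the TGF-beta and YAP pathways 0 of 12 in fibroblast-gated cells were higher or lower.

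Likeness of pattern was measured as Pearson's r of log2(CPM + 10) over 10 sums of a class and library with at least 50 cells each, among 2683 genes, and these points share libraries and free RNA. The gene most like Postn was another member, Thbs2 (r = 0.94). Fn1 was most like Lbp (0.99), Ccn1 like Bmpr2 and Amotl2 (0.97 and 0.96), Sparc like Htra1 (0.97), Thbs1 like Dkk2 (0.97), Ccn2 like Pls3 (0.96) and Tnc like Egfl8 (0.99). Cilp and Spp1 had weaker partners, Ptbp1 (0.88) and Hsbp1 (0.90). Tnc was at 357 CPM in the sum of case Schwann-gated cells and at 9.59 CPM or less in the other sums, so its r rests on that sum. Cells that passed no marker limit were not among the sums. Postn and Thbs2 were also highest in that sum, where few cells held most of their UMIs.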

How the data were processed

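The authors deposited raw UMI counts of 32623 genes per cell barcode, made with Cell Ranger 3.1.0 per the file headers; the submitters' processing notes name Rnor_6.0 and Seurat. Barcode suffixes were assigned to the groups by their barcode numbers, 3321 (control) and 5656 (case), as the study states them; 21 barcode sequences occurred in both libraries, 9 among kept cells. Barcodes were kept with at most 20% mitochondrial UMIs (13 genes), log10 UMIs and genes within 2 SD of the library mean, and genes within 3 robust SD of a fit on UMIs. A cell passed a gate with at least 40 (smooth muscle, fibroblast), 10 (macrophage, Schwann) or 5 (endothelial, T cell) marker UMIs per 10000, 3 UMIs and 2 markers; these limits were set after the distributions had been seen, and 377, 263, 31, 74, 63 and 11 cells lay near them in the order given. Cells past 2 gates were kept apart (222 control and 136 case cells with smooth muscle and fibroblast markers, 26 and 62 others), 61 and 167 passed none, and the T cell gate held 1 and 4. Doublets were left in. Intervals were exact (Poisson, Clopper-Pearson, conditional binomial for ratios). Only the ratio and its interval were tested on simulated data, which were Poisson counts. The filter, gates, thinning and splits were not. The members and lists were chosen with earlier results of these data known. Named were all 10 members, up to 4 genes per list with the largest ratios, and the genes most like each member; Cilp as a split was added later. Alternatives, 12 planned and 1 added, concerned the filter, gates, clustering, scaling, depth and thresholds. Tools were scanpy 1.11.5 with leidenalg 0.10.2, scipy 1.17.1 and matplotlib 3.10.9 in Python 3.11.15, and edgeR 4.0.16 in R 4.3.3. Promoters came from RefSeq, build GRCr8, whose coordinates are not those of Rnor_6.0. The smooth muscle values of the list of TGF-beta and YAP pathway genes are not reported here.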

Additional observations from a re-analysis of the deposited data

Results flagged for a closer look

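Spp1 moved in opposite directions in different gates, with a log2 ratio of case over control of 2.05 in macrophage-gated cells and -5.44 in endothelial-gated cells; the difference between the gates was not tested, and each value rested on few cells (3 of 115 case macrophage-gated and 5 of 56 control endothelial-gated cells). Fn1 had a log2 ratio of 0.86 (interval 0.51 to 1.23) in cells that passed no marker limit. Of these cells the report otherwise gives only the Tnc values. Fn1 measured 382 CPM in 61 control and 695 CPM in 167 case cells, with 40.0% of the case UMIs in 5 cells.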

How the results depend on the processing

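No paired analysis was possible because each group is 1 pooled library. Of 11 ratios past 1.5-fold in the 4 gates, 10 stayed past it under each of the 10 settings planned for ratios and none changed sign; Fn1 in endothelial-gated cells did not under TMM scaling (log2 ratio -0.50), which shifts ratios by 0.14 in the smooth muscle and 0.31 in the endothelial gate and leaves 1 member higher and 2 lower there. With a fold of 2 the count in smooth muscle-gated cells went from 2 to 0 and in endothelial-gated cells from 4 to 2. Thinning to 2000 UMIs gave 4 in smooth muscle-gated cells, Ccn2 and Fn1 being added as lower, and added Ccn2 as higher in fibroblast-gated (log2 ratio 0.61) and Ccn1 as lower in endothelial-gated cells (-0.59), for 5 members in each. In macrophage-gated cells the count of 1 became 4 with no minimum, 2 in Leiden clusters made without the members and 2 with the mean of CPM per cell. Leaving out the 5 cells with the most UMIs of a gene, added after seeing the data, took Spp1 under the minimum in endothelial-gated (log2 ratio -2.33) and macrophage-gated cells (0.91), put Ccn2 past 1.5-fold in macrophage-gated (-1.45) and Thbs1 in endothelial-gated cells (1.18), and raised Postn to 4.62 and Cilp to 4.80 in fibroblast-gated cells. Every gate held fewer control than case cells, so 5 cells were a larger share of the control. That tends to raise the ratios, and the raised values are no better estimates. Scrublet marked 6 control and 0 case cells, too few to have worked, so its alternative says nothing. The clusters divided smooth muscle by library (840 control and 106 case cells in one, 86 and 1333 in another). The endothelial, macrophage and Schwann values rest on 19 to 56 control cells.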
